A study of Mus musculus with 2 samples.

Results

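Autophagy and mitophagy genes were examined in the liver after injury to the kidneys. The 36 genes were taken from a list of the autophagy machinery and its cargo receptors, and every probe set that the array annotation names by 1 of these symbols alone was used. The study compared female C57BL/6 wild-type mice, 8 weeks old, after acute kidney injury (AKI) or after sham surgery. AKI was induced by warm ischemia of both kidneys for 30 min followed by reperfusion, and livers were taken 24 h after the operation. Liver tissue of 3 mice was pooled in each group and each pool was measured on 1 array, so there were 2 arrays and no replicate. Every difference below describes these 2 pools, variation between mice cannot be estimated from them, and no p-value is given. Of the 36 genes, 34 were named by a probe set and 30 passed a filter on low signal, which asks that the probe set standing for the gene reach the array median in either pool, of 18193 named genes and 13142 past the filter on the whole array.

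Autophagy encloses parts of the cytoplasm in a double membrane and delivers them to the lysosome. A kinase complex starts the process, a lipid kinase complex marks the membrane, and ubiquitin-like conjugation attaches proteins of the ATG8 family to the growing membrane, where they bind cargo receptors. Mitophagy is the form that removes mitochondria. In liver, autophagy is known to supply amino acids and lipids in fasting, and much of its control is by phosphorylation, which RNA levels do not show.

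The signals of 5 members differed by at least 2-fold between the pools. Tfeb, Atg12 and Map1lc3b were higher in the AKI pool, and Gabarapl1 and Nbr1 were lower. Differences are given as log2 values of AKI over sham after adding 71.8 to each signal, which understates those of weak signals. The difference was 2.21 for Tfeb, 1.41 for Atg12, 1.38 for Map1lc3b, -1.05 for Nbr1 and -1.97 for Gabarapl1. The other 25 members past the filter were within 2-fold. Of all named genes past the filter 10.7% were at least 2-fold higher, which is close to the share of the 3 members among 30, and 12.8% were 2-fold lower or more, against 6.67% of members. The counts are therefore not a result about autophagy genes as a group. The median difference of the 30 members was -0.19, against -0.02 over all genes past the filter, with 12 members (40.0%) above 0 and 18 below, against 48.9% of all genes above 0. The sign of this median depended on the scaling: it was 0.10 when the arrays were centred on hybridization controls, where the median of all genes was 0.28.

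**Figure D1:**
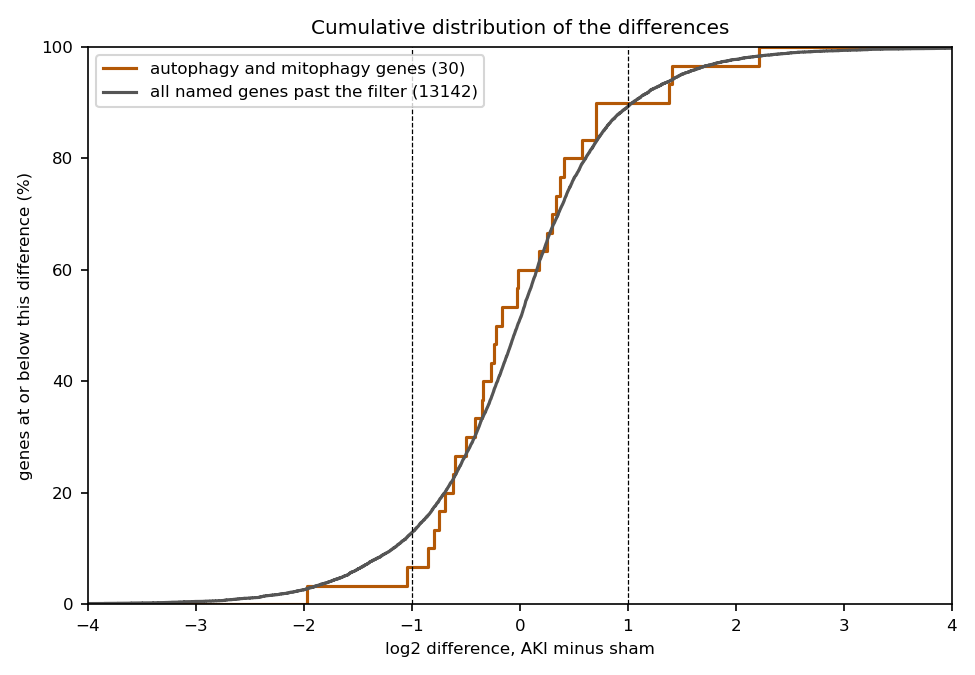
The horizontal axis is the log2 difference, AKI minus sham, and the vertical axis the percentage of genes at or below it, for the 30 autophagy and mitophagy genes and for all 13142 named genes past the level filter. Dashed lines mark 2-fold; the 2 curves run close together, with medians of -0.19 and -0.02.

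The only repeat measurement on these arrays is another probe set of the same gene. Several probe sets passed the filter in 5149 genes, and the SD of their differences within a gene was 0.70, and over the 14 members with such probe sets it was 0.60. In 7 of these 14 members all probe sets past the filter had the same sign, and in 7 they did not, against 57.7% with the same sign over all genes. All probe sets were at least 2-fold higher in 1 member, Map1lc3b, where 3.59% of all such genes met this, and at least 2-fold lower in 1 member, Gabarapl1, where 4.39% did. For 16 members a single probe set passed the filter and agreement could not be examined.

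**Figure D2:**
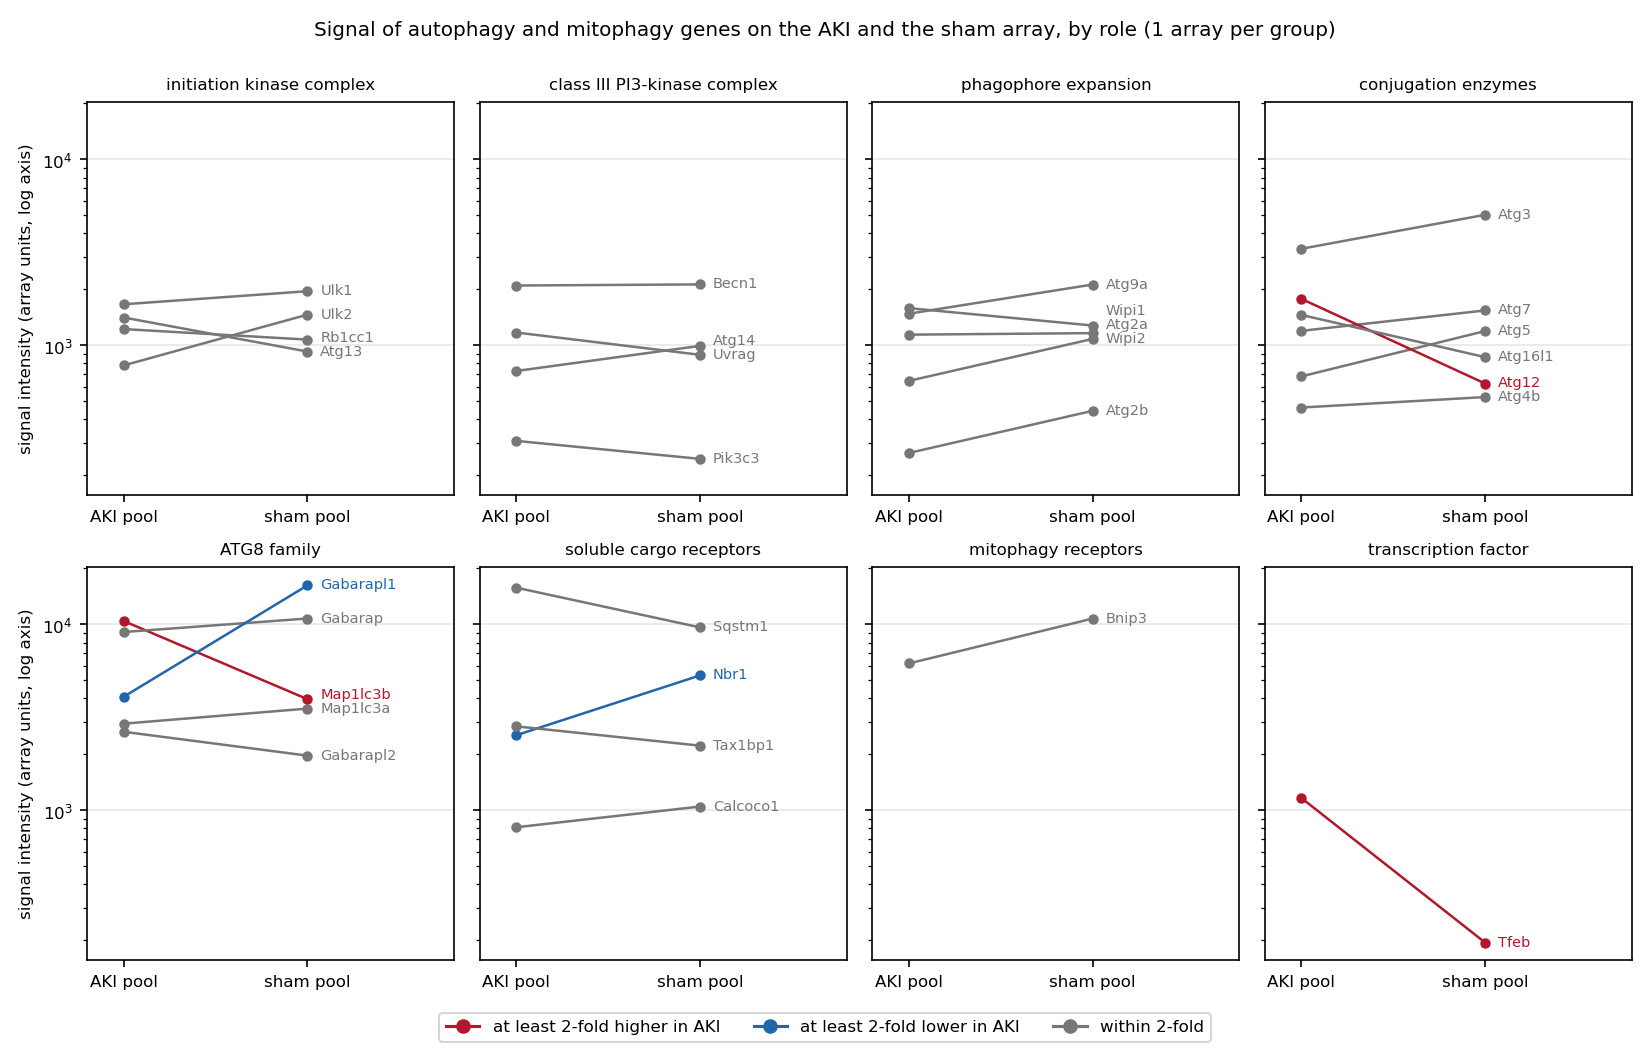
Signal intensity in array units on a log axis for each member past the filter, with the AKI pool at the left and the sham pool at the right of each panel, 1 panel per role and 1 array per group. The lines of Map1lc3b and Gabarapl1 cross in the ATG8 panel, with Map1lc3b at 10431.1 (AKI) and 3965.7 (sham) and Gabarapl1 at 4091.6 (AKI) and 16230.8 (sham).

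Markers of other cell types also differed between the pools. The 6 named hepatocyte markers of 7 listed, which include Alb, Apoa1 and Ttr, had a summed signal of 364836.3 in the AKI pool and 430397.0 in the sham pool, and all were within 2-fold. The 6 named neutrophil markers of 7 summed to 5321.0 in the AKI pool and 1785.3 in the sham pool. S100a8 (3.17) and S100a9 (2.73) led the sum in the AKI pool and were below the filter level in the sham pool. Mpo and Csf3r, past the filter on both arrays, were at -0.03 and 0.145, and Cxcr2 was below the filter. The 6 macrophage markers summed to 6821.8 in the AKI pool and 9574.8 in the sham pool, with Marco at 1.46 and Clec4f at -1.37. The 4 endothelial markers summed to 3755.9 (AKI) and 4982.2 (sham), with Lyve1 at 2.71 and Clec4g at -2.08. The 4 stellate cell markers summed to 18004.5 (AKI) and 10987.8 (sham), of which Dcn made up 14722.2 (AKI) and 7724.9 (sham). Des was at 1.44 and Reln at -0.15, with other probe sets at -0.06 and 0.92, and Lrat was at -1.74. In these 3 lists markers of the same cell type went both ways. Marco, Lyve1 and the neutrophil markers S100a8, S100a9 and Elane passed the filter through the AKI array alone and so had to be higher there. Lrat passed through the sham array alone and so had to be lower in the AKI pool. Among markers past the filter on both arrays, 0 neutrophil, 0 macrophage, 0 endothelial and 1 stellate cell marker were at least 2-fold higher. At least 2-fold lower were 0, 1, 1 and 0. For T and NK cells the 4 named markers of 5 summed to 2642.7 in the AKI pool and 1483.6 in the sham pool, of which Cd8a made up 2221.2 (AKI) and 1229.3 (sham), while Cd3e and Cd3d were below the filter. Sums were 2799.8 (AKI) and 1112.0 (sham) for the 4 cholangiocyte markers, of which Sox9 made up 1729.9 (AKI) and 229.2 (sham). Epcam was within 2-fold (0.40), and Krt19 and Krt7 were below the filter. The sums of the B cell, erythroid, kidney and pancreas markers were 1701.9, 1324.0, 814.0 and 1619.6 in the AKI pool and 1652.9, 1209.1, 839.0 and 1766.2 in the sham pool. Of the markers named on the arrays, 0 had a signal of 0. In a bulk sample, fewer cells of a type and less RNA per cell cannot be told apart, and the part of these markers in the differences of the autophagy genes was not tested.

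By the probe sets standing for the genes, the listed members of the initiation complex differed little. Other probe sets of Ulk1 and Atg13 were past 2-fold. The 4 listed genes encode the kinases Ulk1 and Ulk2, the scaffold protein Rb1cc1, also called FIP200, and the regulatory subunit Atg13. By the probe sets standing for them, all 4 were within 2-fold, from -0.85 to 0.57. Rb1cc1 had the smallest difference, with a signal of 1225.0 in the AKI pool and 1075.2 in the sham pool (0.18). Ulk2 had the most negative one, with 781.5 in the AKI pool and 1464.9 in the sham pool (-0.85). Another probe set of Ulk2 was at 0.30, so the direction of Ulk2 differed between its probe sets. Both probe sets of Ulk1 were lower in the AKI pool, at -0.22 and -1.14. The 3 probe sets of Atg13 disagreed, at 0.57, 1.11 and -1.30.

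The class III phosphatidylinositol 3-kinase complex makes the lipid that marks the site of membrane growth. Pik3c3 is its catalytic subunit, Becn1 its core regulator, Atg14 directs it to autophagosomes and Uvrag forms the version that acts on endosomes. The 4 members past the filter were all within 2-fold, from -0.41 for Atg14 to 0.37 for Uvrag. Becn1 was nearly equal in the pools, with a signal of 2100.8 in the AKI pool and 2129.3 in the sham pool (-0.02), although its 4 probe sets past the filter spanned -0.05 to 0.63. Pik3c3 was at 0.25. Pik3r4, the regulatory kinase-like subunit, did not pass the filter, with signals of 165.7 in the AKI pool and 176.3 in the sham pool.

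Of the 5 members that act in membrane expansion, 4 were below 0 and all were within 2-fold, with a median of -0.50, though Atg2a was at 0.27 when the arrays were centred on hybridization controls. Wipi1 and Wipi2 bind the lipid made by the kinase complex, Atg2a and Atg2b transfer lipids into the growing membrane, and Atg9a is a membrane protein that supplies seed vesicles. Atg9a had a signal of 1481.7 in the AKI pool and 2126.6 in the sham pool (-0.50). Atg2a had the smallest difference, with 1143.0 in the AKI pool and 1165.3 in the sham pool (-0.03). Wipi2 and Atg2b were at -0.69 and -0.62 by their main probe sets. Their other probe sets went both ways, up to 0.72 for Wipi2 and between -1.56 and 0.32 for Atg2b. Wipi1 was the single member above 0 here, at 0.30, and its 4 probe sets past the filter spanned -0.12 to 0.44.

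Among the conjugation enzymes, Atg12 was higher and the other measured members were within 2-fold. Atg12 is the ubiquitin-like protein that is joined to Atg5, and with Atg16l1 this conjugate directs ATG8 proteins to the membrane. Its signal was 1779.4 in the AKI pool and 624.4 in the sham pool, a ratio of 2.85. This rests on 1 probe set, since the other 2 probe sets of Atg12, at 0.55 and -0.34, were below the filter. Its partners differed from it and from each other. Atg5 had 682.1 in the AKI pool and 1195.3 in the sham pool (-0.75), with all 3 of its probe sets below 0, from -1.38 to -0.46. Atg16l1 had 1459.3 in the AKI pool and 865.4 in the sham pool (0.71). The difference of Atg12 exceeded that of Atg5 by 2.16, a quantity that centring by a constant does not alter.

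The enzymes that activate and transfer ATG8 proteins were slightly lower in the AKI pool, except that Atg4b was at 0.13 with centring on hybridization controls. Atg7, the activating enzyme, was at -0.35, with its other probe set past the filter at -0.45. Atg3, the transfer enzyme for ATG8 proteins, was at -0.60. Atg4b, a protease that trims ATG8 proteins before conjugation, had the smallest difference of the role, with 463.8 in the AKI pool and 528.0 in the sham pool (-0.16). These 3 members were within 1 SD of probe sets of their level class from 0 (0.67 for the class of Atg7 and Atg3, 0.73 for that of Atg4b). Atg4c, Atg10 and Atg16l2, a further protease, the transfer enzyme for Atg12 and a relative of Atg16l1, were below the filter. Their signals were 109.9, 153.1 and 118.4 in the AKI pool and 208.0, 164.8 and 75.1 in the sham pool.

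The ATG8 family held 2 members with several probe sets past the filter that were all past 2-fold, and these 2 differed in opposite directions. ATG8 proteins are coupled to a lipid of the autophagosome membrane and bind the receptors that carry cargo. The family has an LC3 branch (Map1lc3a, Map1lc3b) and a GABARAP branch (Gabarap, Gabarapl1, Gabarapl2). Map1lc3b had a signal of 10431.1 in the AKI pool and 3965.7 in the sham pool. Its 2 further probe sets past the filter gave 8969.4 and 7925.9 in the AKI pool against 3613.1 and 2800.8 in the sham pool, and the remaining one, below the filter, gave 27.8 in the AKI pool and 27.6 in the sham pool. The 3 past the filter were all higher in the AKI pool, by 1.38, 1.29 and 1.48, and the difference ranked 816th from the top of 13142 genes.

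Gabarapl1 had a signal of 4091.6 in the AKI pool and 16230.8 in the sham pool. Its other probe set had 1605.4 in the AKI pool and 6017.8 in the sham pool. Both were lower in the AKI pool, and the signal ratio of sham over AKI was 3.97 for the main probe set. The log2 differences were -1.97 and -1.86, where the probe-set SD of this level class was 0.67. Gabarapl1 ranked 365th from the bottom. The differences of Map1lc3b and Gabarapl1 lay 3.35 apart, and 3.16 apart between their closest probe sets. Centring by a constant does not alter this distance, which shows unequal change and not which of the 2 differed in absolute amount.

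The remaining ATG8 members were within 2-fold. Gabarapl2 had 2648.6 in the AKI pool and 1971.7 in the sham pool (0.41). Gabarap had 9109.2 in the AKI pool and 10768.0 in the sham pool (-0.24), on a single probe set. Map1lc3a had 2928.7 in the AKI pool and 3530.8 in the sham pool (-0.26), with another probe set at -0.48. With centring on hybridization controls Gabarap and Map1lc3a were at 0.06 and 0.03. Neither branch differed as a unit: the LC3 branch held 1 higher and 1 within 2-fold, and the GABARAP branch 1 lower and 2 within 2-fold.

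The promoter windows of the oppositely differing ATG8 pair are shown because these 2 members carry the clearest contrast. Each window runs from 250 bases before to 50 bases after the start of the gene, from RefSeq (GRCm38.p6), and is written 5′ to 3′ on the strand of the gene. Capitals mark GCGTG or its reverse complement, 1 form of the core of the hypoxia response element. Its ACGTG form was not searched. The window of Map1lc3b (chr8:121590188-121590487, plus strand) held 5 matches and had a GC content of 68%, and that of Gabarapl1 (chr6:129532942-129533241, plus strand) held 0 and had 46.3%.
Map1lc3b: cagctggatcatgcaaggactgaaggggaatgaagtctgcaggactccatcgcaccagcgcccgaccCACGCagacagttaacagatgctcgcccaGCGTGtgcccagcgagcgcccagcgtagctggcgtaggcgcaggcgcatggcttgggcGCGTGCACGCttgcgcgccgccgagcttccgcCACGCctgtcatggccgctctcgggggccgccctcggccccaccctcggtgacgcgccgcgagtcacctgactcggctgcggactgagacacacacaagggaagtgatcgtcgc
Gabarapl1: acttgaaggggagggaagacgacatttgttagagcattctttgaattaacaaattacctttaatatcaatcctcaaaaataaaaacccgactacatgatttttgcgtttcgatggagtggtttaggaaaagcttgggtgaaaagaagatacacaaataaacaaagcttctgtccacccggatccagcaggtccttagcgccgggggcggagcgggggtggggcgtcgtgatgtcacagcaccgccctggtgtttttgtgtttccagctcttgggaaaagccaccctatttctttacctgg
The matches in Map1lc3b lie before the gene start, and 2 of them adjoin each other. A match describes letters only, and its absence from the Gabarapl1 window says nothing of any factor.

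**Figure D3:**
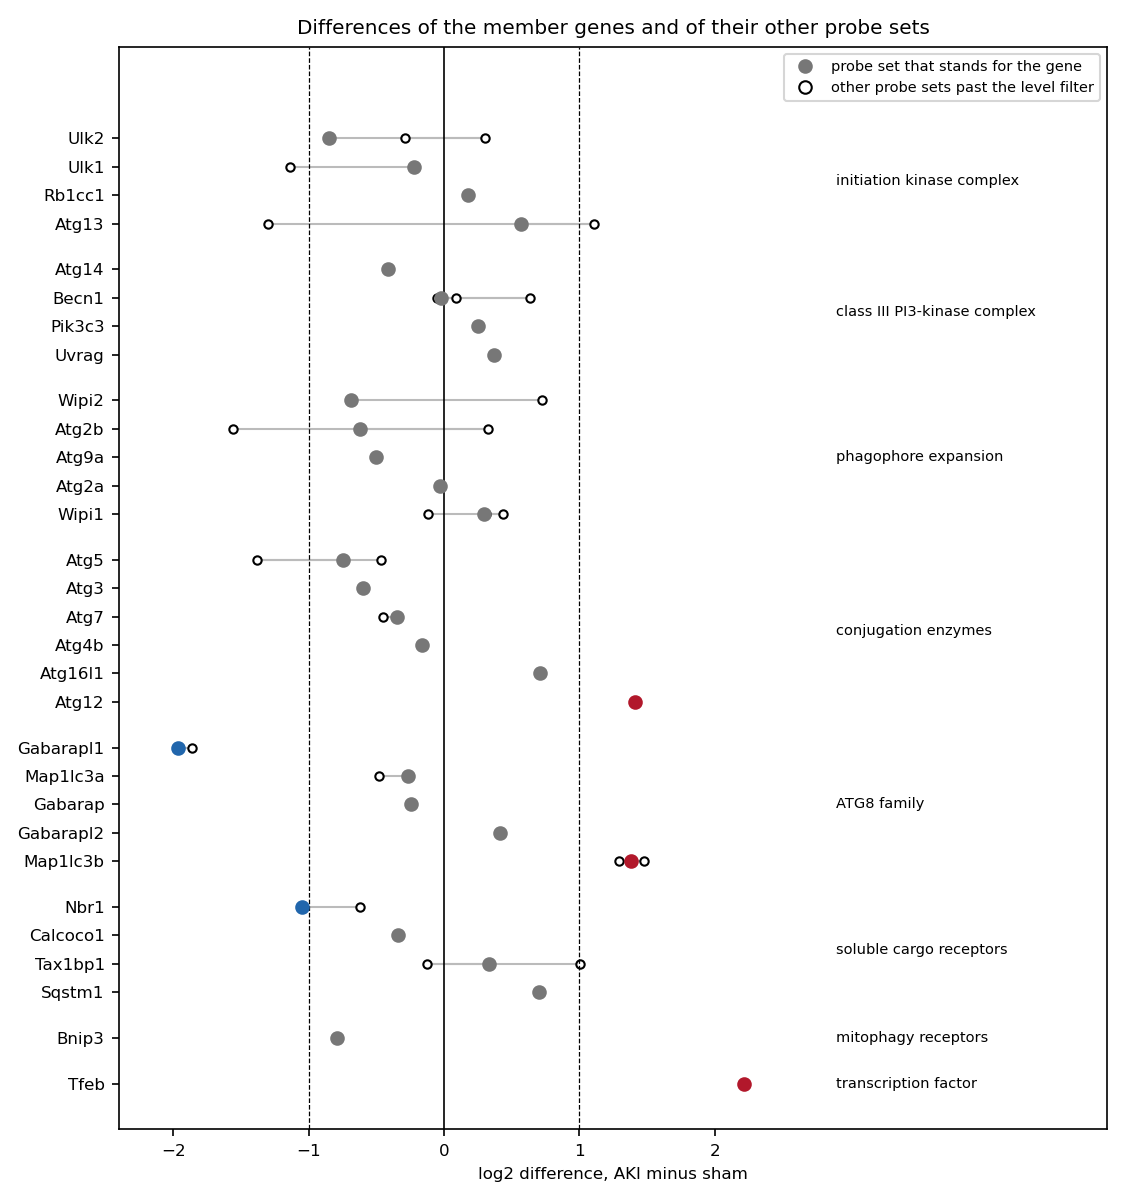
The horizontal axis is the log2 difference, AKI minus sham, and each row is a member past the filter, ordered by role. Filled points are the probe set that stands for the gene (red at least 2-fold higher, blue at least 2-fold lower, grey within), open points its other probe sets past the filter, and dashed lines mark 2-fold. The 3 points of Map1lc3b and the 2 points of Gabarapl1 lie outside the dashed lines on opposite sides.

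The soluble cargo receptors bind ubiquitin or other cargo on one side and ATG8 proteins on the other. Nbr1, a receptor for protein aggregates and peroxisomes, was the member just past 2-fold, with 2540.0 in the AKI pool and 5322.4 in the sham pool (-1.05). Its other probe set was at -0.62, so the direction was shared but the 2-fold size was not. Sqstm1, which encodes p62, the receptor that is itself degraded by autophagy, had 15769.8 in the AKI pool and 9645.0 in the sham pool (0.71), within 2-fold. The difference of Sqstm1 exceeded that of its partner Nbr1 by 1.75. Tax1bp1, a receptor of aggregates, had the smallest difference of the role, with 2832.8 in the AKI pool and 2230.6 in the sham pool (0.34), and its probe sets spanned -0.12 to 1.01. Calcoco1, a receptor for the endoplasmic reticulum, had -0.34. No probe set carried the name of Optn alone.

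Mitophagy receptors sit in the outer mitochondrial membrane and bind ATG8 proteins directly. Bnip3, which is known to be induced by hypoxia, had a signal of 6173.2 in the AKI pool and 10753.9 in the sham pool (-0.79). It was lower in the AKI pool but within 2-fold, on a single probe set. The 3 probe sets annotated to its relative Bnip3l carry the name of a pseudogene as well and were not used.

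Tfeb had the largest positive difference among the 30 members. It encodes the transcription factor that activates lysosome and autophagy genes when it enters the nucleus. Its signal was 1165.6 in the AKI pool and 194.9 in the sham pool, a signal ratio of 5.98, and the log2 difference of 2.21 ranked 215th from the top. Its single probe set was below the filter level on the sham array, so Tfeb passed through the AKI array alone, and a gene that passes in this way had to be higher there. Tfeb was the single member of which this holds.

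The core letters that Tfeb and related factors bind, CACGTG, were looked for in the promoter windows because Tfeb had the largest positive difference. RefSeq windows were matched for 29 of the 36 members, 34 windows in all, and 5 of the 34 (14.7%) held CACGTG, against 7.15% of all 32851 windows. CACGTG contains a CpG dinucleotide, of which the members' windows held more (median 20, against 7 in all windows). The shares were not adjusted for this. The 5 genes with a match were Atg14, Atg3, Atg5, Atg7 and Bnip3. Each match is shown with 17 bases on either side, 5′ to 3′ on the strand of the gene, with CACGTG in capitals.
Atg14 (chr14:47568413-47568452, minus strand): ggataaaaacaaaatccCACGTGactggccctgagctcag
Atg3 (chr16:45158718-45158757, plus strand): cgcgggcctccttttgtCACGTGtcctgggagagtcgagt
Atg3, nearer the start (chr16:45158741-45158780, plus strand): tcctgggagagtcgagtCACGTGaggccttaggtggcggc
Atg5 (chr10:44268308-44268347, plus strand): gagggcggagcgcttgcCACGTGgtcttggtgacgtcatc
Atg7 (chr6:114670947-114670986, plus strand): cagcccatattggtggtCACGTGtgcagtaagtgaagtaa
Bnip3 (chr7:138909592-138909631, minus strand): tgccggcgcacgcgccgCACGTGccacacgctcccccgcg
By the probe sets standing for them, all 5 genes with these letters were lower in the AKI pool, from -0.79 for Bnip3 to -0.35 for Atg7. All 5 stayed below 0 under each of the 11 alternatives. Of 19 members past the filter whose windows lack the letters, 11 were below 0, as were 6715 of all 13142 genes past the filter. The share below 0 among all genes with CACGTG was not computed, so the signs are not a result about these letters. This is a description of 5 genes, within 2-fold by those probe sets, although another probe set of Atg5 was at -1.38. A match is not a bound site.

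Further motifs were searched on both strands. GCGTG was in 23 of the 34 windows (67.6%), against 32.4% of all windows, and the members' windows also had a higher median GC content (60.8%, against 52.7%) and more CpG dinucleotides (median 20, against 7). The forkhead core, searched only as GTAAACA, was in 0 of the 34 windows and 3.65% of all. Its other forms were not searched, such as ATAAACA, whose letters occur in the window of Gabarapl1 shown above. TGATGNAA, the element of C/EBP and ATF factors, was in 0 of 34 and 3.97% of all. The motifs searched could overlap each other. Windows with CACGTG also hold ACGTG, a form of the hypoxia response core that the count of GCGTG leaves out.

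Other genes of the pathway were read from 6 lists with 112 genes, of which 100 passed the filter. In these lists 11 genes were higher by 2-fold or more and 15 lower by as much, with a median of -0.12. Of all genes past the filter 10.7% were higher and 12.8% lower by as much, with a median of -0.02. The counts over the lists together were thus close to those shares. Centring on hybridization controls turned the medians of the machinery, the mTORC1 and the lysosome lists above 0 (0.28, 0.15 and 0.13). Among 18 genes of the further autophagy machinery and fusion steps, 1 (5.56%) was higher and 2 (11.1%) were lower, shares not above those of all genes. Wdr45b, a relative of the Wipi proteins, had 9008.8 in the AKI pool and 2576.4 in the sham pool (1.78). Atg4a, a protease of the Atg4 family, was at -1.48 and Vamp8, a fusion protein of the autophagosome and lysosome, at -1.07.

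Selective autophagy genes went both ways, with 2 of 16 higher and 4 lower, against 10.7% and 12.8% of all genes. The share of higher genes was thus close to that of all genes. Retreg1, the receptor for autophagy of the endoplasmic reticulum, had 17248.9 in the AKI pool and 3737.2 in the sham pool (2.19), and its other probe set was at 1.44. Tbk1, the kinase that phosphorylates cargo receptors, was at 1.00. Both genes were thus higher by all their probe sets past the filter. Stbd1, which links glycogen to autophagy, had 251.1 in the AKI pool and 1812.4 in the sham pool (-2.54). Fkbp8 (-1.84), a mitophagy receptor, Mfn2 (-1.63), which fuses mitochondria, and Tex264 (-1.60), another receptor for the endoplasmic reticulum, were also lower, although Mfn2 had another probe set at -0.28.

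Genes that control Tfeb and mTORC1 were mostly within 2-fold. Of 12 relatives and regulators of Tfeb and of the FOXO factors, 0 were higher and 4 (33.3%) were lower, as were 3 of the 11 past the filter on both arrays, against 12.8% of all genes. Of the 4, the transcription factor gene Foxo4 (-2.47, with another probe set at 0.27) passed the filter through the sham array alone and so had to be lower in the AKI pool. The others were the transcription factor gene Foxo3 (-1.14), Zkscan3 (-1.52, with another probe set at -0.30), a repressor of autophagy genes, and Flcn (-1.11), the folliculin gene. Tfe3 and Mitf, relatives of Tfeb, were at 0.05 and 0.17. Of 24 genes of mTORC1 and AMPK control, 0 were higher and 4 (16.7%) were lower, against 10.7% and 12.8% of all genes. Deptor, an inhibitor of mTOR, had 553.3 in the AKI pool and 3159.8 in the sham pool (-2.37), and all 5 of its probe sets past the filter were lower, from -3.95 to -1.69. The others were Tsc2 (-1.46), which restrains mTORC1, Lamtor2 (-1.36), part of its lysosomal anchor, and the sestrin gene Sesn3 (-1.32).

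By the probe sets standing for them, lysosomal genes were within 2-fold in 18 of 20 cases, with a median of -0.17. Of all genes, 10.7% were higher and 12.8% lower by at least 2-fold. Other probe sets past the filter were past 2-fold for Ctsb (1.765), Atp6v1d (1.272), Ctsz (-1.164) and Npc2 (-1.058). Ctsl, a lysosomal protease, had 62531.1 in the AKI pool and 15898.5 in the sham pool (1.97), and Npc1, which exports cholesterol from the lysosome, was at -1.44. In the integrated stress response list, 7 of 10 genes (70.0%) were at least 2-fold higher, against 10.7% of all genes. Lower genes numbered 0, against 12.8% of all genes, and the median was 1.50. Atf3 and Eif2ak4 passed the filter through the AKI array alone and so had to be higher there. Of the other 8 genes, 5 were at least 2-fold higher, and without the filter the median was 1.24. The factor Atf4, which is known to activate autophagy genes, had 13047.7 in the AKI pool and 3306.4 in the sham pool (1.96). Also higher were the transcription factor gene Ddit3 (1.24) and Eif2ak3 (1.87), the gene of the kinase PERK. The transcription factor gene Atf3 (2.97) had 2090.2 in the AKI pool and 203.5, below the filter level, in the sham pool. Ppp1r15a (1.85), a phosphatase subunit that ends the response, and Chac1 (1.77), which degrades glutathione, were higher as well.

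**Figure D4:**
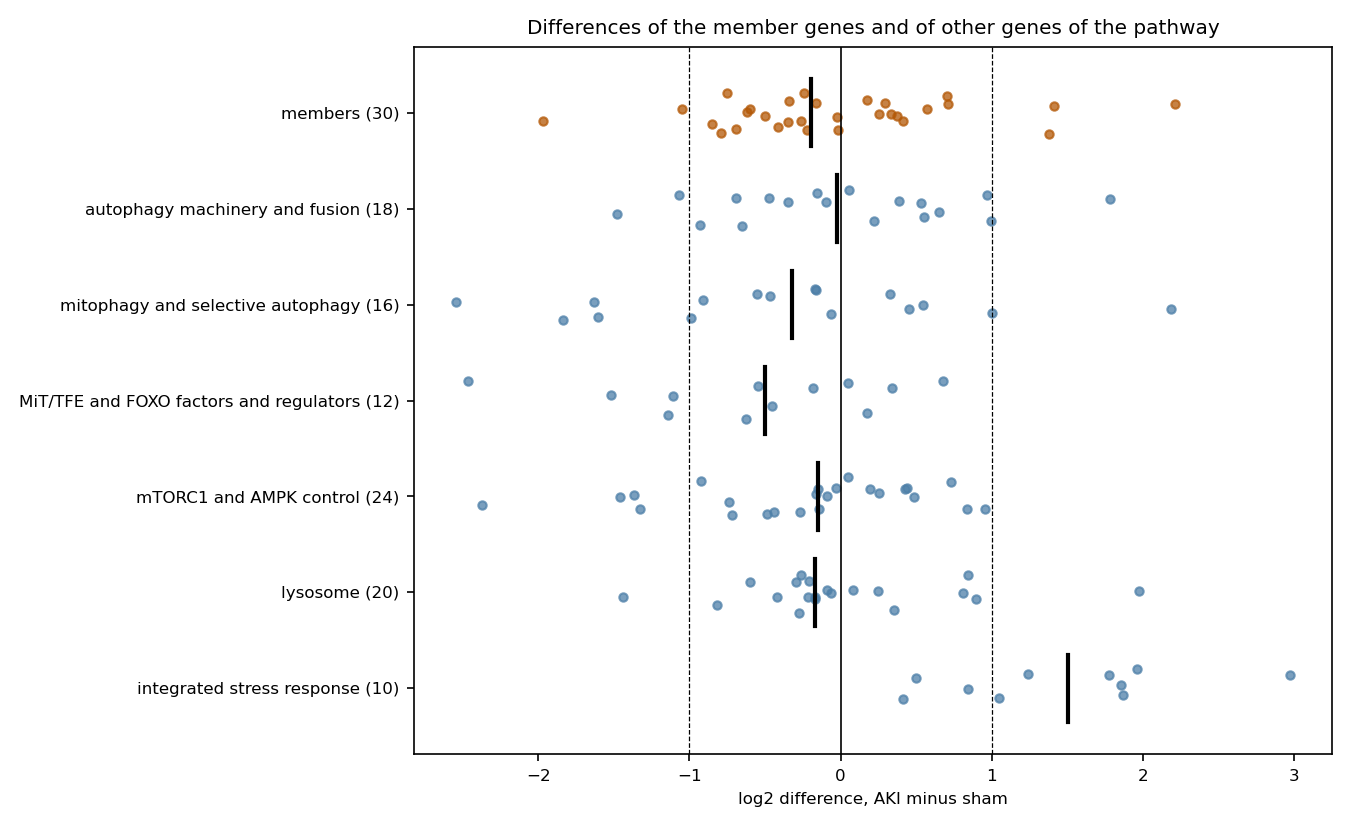
The horizontal axis is the log2 difference, AKI minus sham, and each point is a gene past the filter, for the 30 members and the 6 other lists, with the number of genes in brackets. Black bars are medians and dashed lines mark 2-fold. The integrated stress response list lies to the right with a median of 1.50, and the other medians lie between -0.50 and -0.02.

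The calls of the 5 members depended unevenly on the scaling and the choice of probe set. Map1lc3b, Tfeb and Gabarapl1 were past 2-fold under all 11 alternatives, with ranges of 1.18 to 1.68, 1.72 to 2.57 and -2.17 to -1.67. Atg12 was past 2-fold under the 10 that gave it a value (1.21 to 1.71). Nbr1 was past 2-fold under 7 of 10 (-1.25 to -0.75). Centring on hybridization controls gave 5 higher and 1 lower member, adding Atg16l1 (1.01) and Sqstm1 (1.00). Centring on reference genes gave 3 higher and 3 lower, adding Ulk2 (-1.05).

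**Figure D5:**
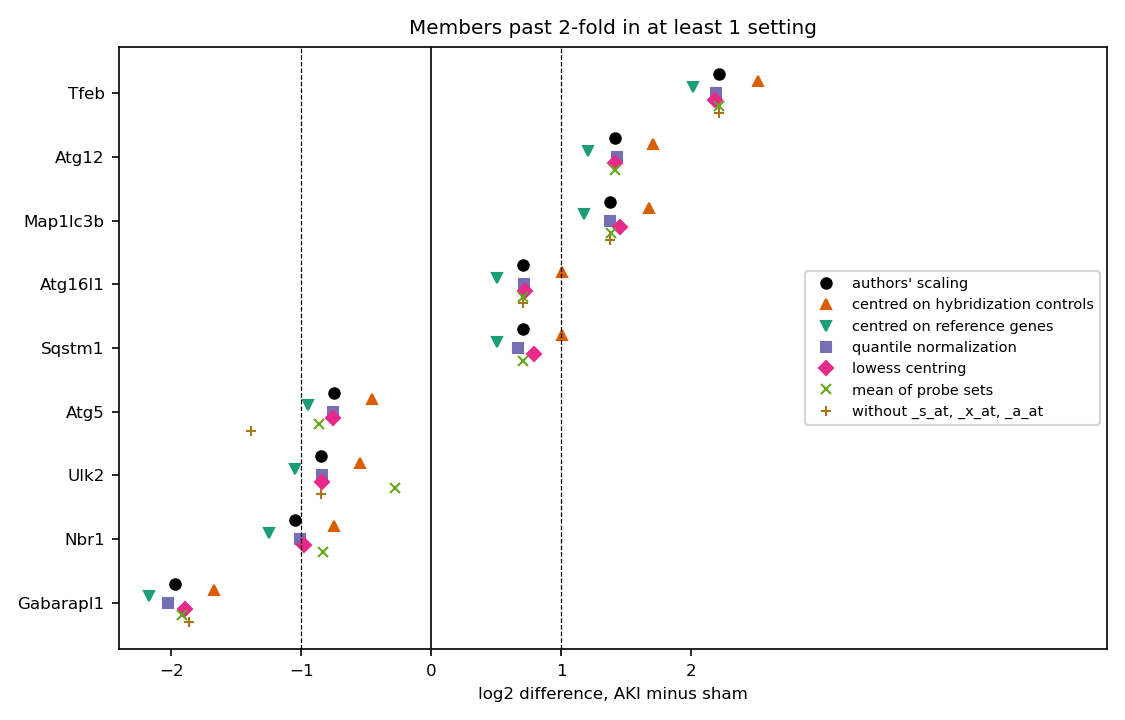
The horizontal axis is the log2 difference, AKI minus sham, of the 9 members past 2-fold in at least 1 setting, and each symbol is 1 setting as named in the legend. Gabarapl1, Map1lc3b, Atg12 and Tfeb lie outside the dashed 2-fold lines under every setting drawn, whereas Nbr1 crosses the line.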

How the data were processed

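Pooled frozen livers of 3 mice per group were hybridised to 1 Affymetrix array per group, per the labels' protocols. The deposited values are linear signal intensity values (0.6 to 127786.6), made by software not given in the sources used here. With 2% of probe sets trimmed at either end, the mean was 500.00 on both arrays, so the authors had scaled them to a common target, which removes any difference in total mRNA.

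Of 45101 probe sets, 64 were array controls. The platform annotation gave 34945 of the others 1 gene symbol, 932 several and 9160 none. Entrez numbers matched 34741 of them to a RefSeq gene table (GRCm38.p6), which altered 0 symbols. A gene's probe set of highest mean signal stood for the gene. Differences are log2(signal + 71.8), AKI minus sham, the added 71.8 being the 25th percentile of both arrays. A gene passed the level filter when this probe set reached, on 1 array or both, the median of all probe sets but controls (231.8 AKI, 225.7 sham). With 1 array per group there is no test and no p-value. Measurement error was taken as the SD of differences among probe sets of 1 gene, within 4 level classes. It leaves out variation between mice.

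The members, the lists and the motifs were chosen with earlier results of these data known. The signal is given for members past 2-fold, for the smallest difference of each role and for ATG8-family and mitophagy receptor members. At most 6 genes past 2-fold are named from each other list. There were 11 alternatives: median, quantile, lowess (fraction 0.3), hybridization control (18 probe sets) and reference gene centring, pseudocounts of 1 and 228.7 (the table median), the mean of probe sets, no suffixed probe sets, no filter, and a filter at the 75th percentile. The computation was tested on simulated data. Tables were handled in Python 3.11.15 with pandas 2.3.3 and numpy 2.4.6, lowess came from statsmodels 0.14.6, trimmed means from scipy 1.17.1 and plots from matplotlib 3.10.9.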

Additional observations from a re-analysis of the deposited data

How the results depend on the processing

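The median difference of the members was -0.19. It became 0.10 when the arrays were centred on hybridization controls and -0.39 when they were centred on reference genes, and it stayed -0.17 from the median of all genes under both, since centring moves all genes alike. Members at least 2-fold higher numbered 5, against 3, with centring on hybridization controls. Members at least 2-fold lower numbered 1, against 2, with centring on hybridization controls, with lowess centring and with probe sets averaged per gene, because Nbr1 was then within 2-fold. Under the other alternatives the counts were within 1.5 times those reported, but without suffixed probe sets Atg12 and Nbr1 gave no value and Atg5 was lower (-1.38). Of the 30 members, 20 kept their sign under every alternative that gave a value. Of 323 recomputed member values, 2 moved by over 1 SD of probe sets, and 0 of the values past 2-fold changed sign. No paired analysis was possible because each group is 1 pool on 1 array. Nothing here estimates variation between mice, and weak signals, as of Tfeb in the sham pool, have the least certain ratios.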
